A study of Mus musculus with 14 samples.

Results

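Perivascular macrophages of the mouse nucleus accumbens were picked out of 8 droplet libraries, and 80 cells of 33225 kept barcodes met the definition. A barcode was kept when it held 300 or more detected genes and when mitochondrial transcripts took no more than 20% of its UMIs (unique molecular identifiers, each marking 1 captured transcript). The cells were chosen by measured values: 3 or more UMIs summed over Mrc1, Pf4, F13a1, Cd163, Lyve1 and Cbr2, 2 or more over Csf1r, C1qa and C1qb, and no more than 1 over P2ry12, Tmem119 and Siglech. These 12 genes are therefore given as levels only, with no test. The tables held 36000 barcodes before the filters.

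Perivascular macrophages sit outside the vessel wall of the brain, between the vessel and the glial border, and are long-lived relatives of microglia, the macrophages inside the tissue itself. They are known for taking up proteins, lipids and debris from the perivascular fluid through scavenger receptors and lectins, and for presenting antigen at the border of the brain. Both cell types depend on the growth factor receptor Csf1r and make the complement component C1q, whereas P2ry12 and Tmem119 mark microglia.

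The mice were male C57BL/6 animals injected into the peritoneum with saline, the mock group, or with morphine sulfate, and no engineered allele is named. The dose and the time between injection and collection are not given in the sources used here. Each of the 4 mock and 4 morphine libraries was a pool of 2 mice, so the pool and not the cell is the replicate. In both groups pool 1 came from mice of 42 and 45 days, pool 2 from mice of 37 and 42 days, pool 3 from mice of 78 and 82 days, and both mice of pool 4 were 78 days old. The tissue was taken apart with papain and single cells were captured by Drop-seq, which pairs each cell with a barcoded bead in a droplet. The 8 tables held 6910203 to 24668659 UMIs, with a median of 1732.5 to 2775 UMIs per kept barcode. Of the kept barcode sequences 40 occurred in more than 1 pool, none of them a macrophage, and no doublet caller was run.

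The macrophages numbered 3, 17, 14 and 8 in mock pools 1 to 4 and 5, 13, 13 and 7 in morphine pools 1 to 4. They held 188167 UMIs in all. A cell had a median of 1542 UMIs (lowest 555, highest 21792) in a median of 917.5 genes, and a median of 4.38% of its UMIs was mitochondrial. For comparison 990 microglia were taken from the same pools: barcodes with 3 or more UMIs of P2ry12, Tmem119 and Siglech, 2 or more of the Csf1r group and no more than 1 of the macrophage genes. Their median was 1326.5 UMIs.

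The summed UMIs of the 6 macrophage genes had a median of 17.5 per cell and a maximum of 89. No cell lay at the threshold itself: the lowest had 4 UMIs, in 6 cells, and 57 cells had 10 or more. All 6 genes were detected in 21 cells, 5 of them in 29 cells and 4 in 14 cells, while 2 cells had UMIs of 1 gene only. Just outside the threshold, 8 barcodes that met the other conditions had 2 macrophage UMIs and 13 had 1. A further 19 barcodes failed only by holding more than 1 microglia UMI, 10 of them with 2. Those 19 had a median of 19 macrophage UMIs and 2274 UMIs in total. Among the macrophages 55 had no microglia UMI and 25 had 1, and 14 barcodes failed only on the Csf1r group.

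Mrc1, the mannose receptor CD206 that binds sugar-bearing ligands, had 543 UMIs in the macrophages and was detected in 78 of 80 cells. Its level ran from 1176 CPM (counts per 1000000 UMIs) in mock pool 2 to 4805 CPM in morphine pool 3, with a median of 3156 CPM over the 8 pools, against 0 to 10.3 CPM in the microglia. Every pool's macrophages therefore lay above every pool's microglia. Mrc1 is part of the sum on which both cell types were chosen, so this order is not independent evidence. The gene spans chr2:14229392-14332057 on the plus strand of GRCm38.

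Pf4, the chemokine platelet factor 4, was detected in 72 cells with 310 UMIs. Its level ran from 1034 to 4125 CPM with a median of 1587 CPM, and the microglia held 1 UMI of it. F13a1, which encodes the A subunit of coagulation factor XIII, a cross-linking enzyme, was detected in 65 cells with 216 UMIs and ranged from 665 to 2091 CPM with a median of 977 CPM. The gene Pf4 lies at chr5:90772435-90773383 on the plus strand and F13a1 at chr13:36867178-37050244 on the minus strand. Transcription starts of 5 of the 6 macrophage genes matched RefSeq promoter windows of GRCm38.p6, 6 windows in all, and Lyve1 had no entry. The sequence GAGGAAGT, a core of sites bound by PU.1 (the transcription factor on which macrophages depend), was searched on both strands and stood in 1052 of 32851 promoter windows (3.20%). In this set it stood in 2 of 6 windows, one each of Pf4 and F13a1, which were chosen for display after the search. The matching stretch is in capitals, 10 bases before the Pf4 start on the opposite strand and 14 bases past the F13a1 start on the same strand.
Pf4, chr5:90772185-90772464, plus strand: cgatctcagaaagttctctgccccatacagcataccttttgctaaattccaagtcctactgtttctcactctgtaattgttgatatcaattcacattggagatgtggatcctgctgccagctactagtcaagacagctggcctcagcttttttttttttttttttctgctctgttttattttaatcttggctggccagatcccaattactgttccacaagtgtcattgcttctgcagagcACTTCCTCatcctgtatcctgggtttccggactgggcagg
F13a1, chr13:37049184-37049463, minus strand: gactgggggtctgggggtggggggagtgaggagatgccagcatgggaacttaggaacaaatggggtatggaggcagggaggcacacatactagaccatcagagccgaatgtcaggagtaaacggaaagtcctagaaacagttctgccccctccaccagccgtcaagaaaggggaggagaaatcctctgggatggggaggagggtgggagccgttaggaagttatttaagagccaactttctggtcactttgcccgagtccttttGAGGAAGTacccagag
The windows searched run from 250 bases before the start to 50 bases after it, and the stretches printed stop 30 bases after it. A match is a description of the letters and not a measured binding site. Among the genes higher in macrophages than in microglia (below) 4 of 114 windows (3.51%) held GAGGAAGT, and among those lower 5 of 81 (6.17%). The sequence TGCTGAC, part of the sequence that Maf factors bind, stood in 4.67% of all windows and in 1 of the 6, that of Cbr2, where the match lies past the stretch that would be printed and is not shown.

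Cd163, the scavenger receptor for haemoglobin bound to haptoglobin, was detected in 46 cells and ranged over pools from 460 to 1742 CPM with a median of 1260 CPM. Lyve1, a hyaluronan receptor shared with lymphatic endothelium, was detected in 48 cells and ranged from 332 to 1959 CPM with a median of 1206 CPM. The microglia held no Lyve1 UMI. Cbr2, a carbonyl reductase, was detected in 57 cells and ranged from 306 to 1146 CPM with a median of 773 CPM. Cd163 and Lyve1 did not always occur together: 30 cells held both, 16 held Cd163 alone, 18 held Lyve1 alone and 16 held neither.

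Neurons served as a check on free RNA, which can give any barcode a few UMIs. Of 19646 neurons, with a median of 3160 UMIs, 0.290% held a Mrc1 UMI, 0.285% a Pf4 UMI and 1.17% a Cd163 UMI. When each cell was thinned to 800 UMIs, which 73 of the macrophages reached, Mrc1 was detected in 86.2% of macrophages and 0.0817% of neurons, and Lyve1 in 50.3% and 0.0651%. The macrophages stood far above that level for each of these genes. They were chosen on the sum that holds these genes, so this gap is not independent evidence.

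The genes that both cell types share were detected in both. Macrophages and microglia were both chosen with a minimum on the summed UMIs of Csf1r, C1qa and C1qb. The detection and levels of these genes in both cell types are therefore not independent evidence. C1qb, a chain of C1q, was detected in all 80 macrophages and had a median over pools of 3840 CPM against 3628 CPM in microglia. C1qa had medians of 2395 and 2295 CPM. Csf1r, the receptor for the growth factors Csf1 and Il34, had medians of 1073 CPM in macrophages and 1798 CPM in microglia. The macrophages held 11 UMIs of P2ry12, 1 of Tmem119 and 13 of Siglech in all, as the selection requires.

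**Figure D1:**
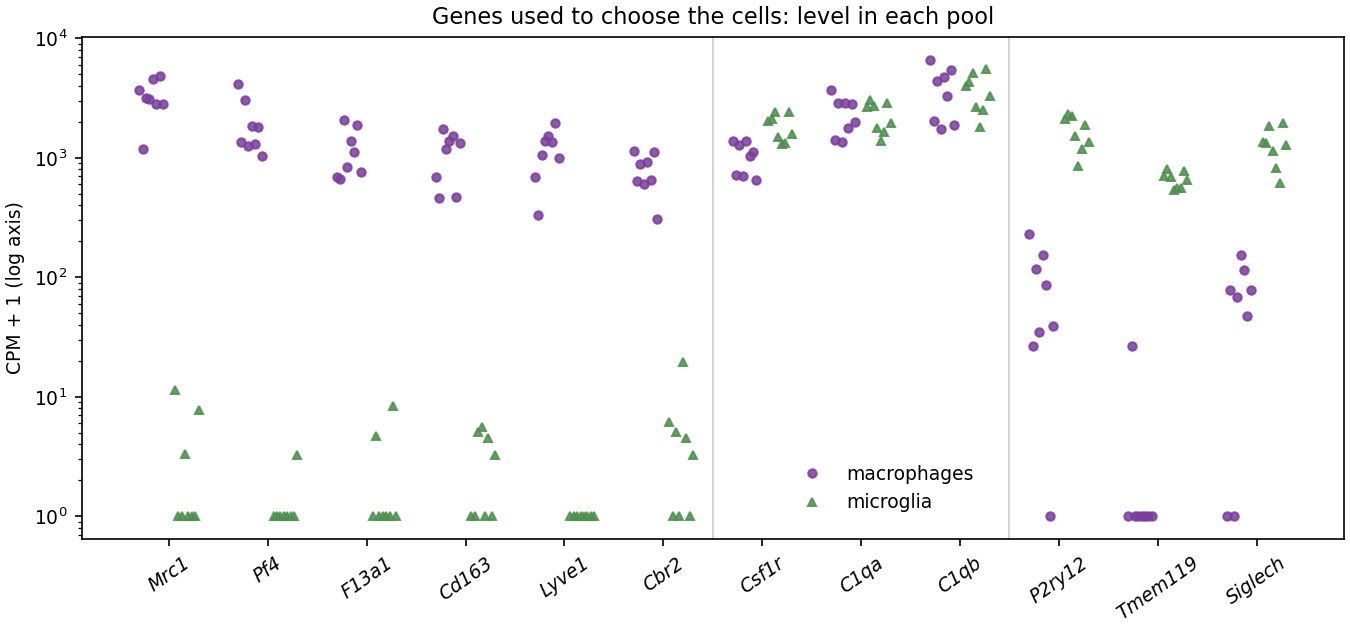
Level of the 12 genes used to choose the cells, in CPM plus 1 on a log axis, with 1 point per pool for macrophages (circles) and microglia (triangles). The 6 macrophage genes on the left lie above 300 CPM in every pool's macrophages and below 20 CPM in every pool's microglia, while Csf1r, C1qa and C1qb overlap.

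Markers of other cell types were looked up in the same cells. In the monocyte and neutrophil list 9 of 10 genes had 0 UMIs, S100a8, S100a9 and Ly6c2 among them, and the tenth, Ccr2, had 2 UMIs in 1 cell. Of the dendritic cell list 8 of 10 genes were at 0, including Flt3, Xcr1, Clec9a, Cd209a and Itgax, and of the lymphocyte list 8 of 10, including Cd3e and Cd79a. The vessel genes Cdh5, Pecam1 and Kdr were at 0 as well. By contrast 21 macrophages drew 1% or more of their UMIs from a 10-gene list of another type: neuronal in 10, oligodendrocyte in 9 and astrocyte in 3. Those 21 comprised 13 of the 42 mock cells and 8 of the 38 morphine cells. The neuron list took 0.948% of all macrophage UMIs and 0.930% of microglial UMIs, and 2.16% of those of neurons. The deepest macrophage, with 21792 UMIs in 6149 genes, had 2.34% in the neuron list.

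Outside the 12 genes, Apoe, the lipid carrier apolipoprotein E, had 29596 CPM summed over the macrophages and UMIs in all 80 cells. Apoe is also made by astrocytes, and 54.1% of neurons held a UMI of it. Lyz2, lysozyme, stood at 4411 CPM in 97.5% of the cells. Other abundant transcripts were Selenop, the selenium carrier, at 4103 CPM, the protease Ctsb at 2971 CPM and the transcription factor Maf at 2774 CPM.

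The macrophages were then compared with the microglia of the same pools, in the 7 pools with 5 or more macrophages (77 macrophages and 882 microglia, 183803 and 1878102 UMIs). Mock pool 1, with 3 macrophages, was left out. UMIs were summed per pool and cell type and tested in edgeR's quasi-likelihood test with the pool as a block, leaving the 12 selection genes out of the test. Of 1602 genes tested, 192 (12%) passed a Benjamini-Hochberg adjusted p of 0.05: 119 (7.43%) were higher in the macrophages and 73 (4.56%) lower. The median log2 difference of all tested genes was 0.04. Of the 192, 139 went the same way in every pool and in 89 the pools of the cell types did not overlap. When the 21 macrophages with 1% of their UMIs in another list were left out, 708 of 2925 genes passed, 239 higher and 469 lower. The microglia were not filtered in this way, and morphine pool 1, left with 3 macrophages, dropped out. Without the pool block 59 of 761 passed. The cells were separated on genes of the same programmes, so the direction of the marker lists is not independent evidence.

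A list of genes known from border macrophages, beyond those of the selection, held 32 genes, of which 27 were tested. Of these 22 were higher and 1 was lower, against the 7.43% and 4.56% above, and the list's median was 3.72. Apoe ranged from 17208 to 49133 CPM over the pools' macrophages, with a median of 26341 CPM, and from 629 to 2287 CPM over their microglia. The log2 difference was 4.64 (SE 0.208, edgeR adjusted p = 3.51e-15), higher in 7 of 7 pools. Lyz2 ranged from 3070 to 7050 CPM against 0 to 282 CPM, a log2 difference of 5.08 (SE 0.275, edgeR adjusted p = 1.19e-13). Ms4a7, a membrane protein of the MS4A family, had 128 UMIs in macrophages and 1 in microglia, a ratio of 1308 per UMI sequenced with a 95% counting interval of 231 to 52058. Its relatives Ms4a6c and Ms4a6b had log2 differences of 4.81 and 3.72, both with no overlap between the cell types, and as near relatives they may share reads.

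The same list held endocytic and stabilising proteins. Dab2, an adaptor of clathrin-dependent uptake, ranged from 768 to 1396 CPM against 0 to 26.9 CPM in microglia, a log2 difference of 5.88 (SE 0.333, edgeR adjusted p = 1.96e-13). Stab1, the scavenger receptor stabilin 1, ranged from 766 to 2287 CPM against 75.0 to 297 CPM, a log2 difference of 3.03 (SE 0.271, edgeR adjusted p = 2.38e-09). Cp, the ferroxidase ceruloplasmin, had a log2 difference of 5.17 and Nrp1, a coreceptor for vascular growth factor and semaphorins, of 3.47. Folr2, a folate receptor, had 39 UMIs in macrophages of 6 pools and none in microglia, which with a floor of 3 UMIs over the microglia is at least 133-fold higher. Maf was 2.22 higher on the log2 scale in 7 of 7 pools.

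Of 23 scavenger receptors, lectins and clearance receptors 11 were tested, 7 were higher and 1 was lower, beside 7.43% and 4.56% of all genes tested, with a median of 1.86. Clec10a, a galactose-binding lectin, had 56 UMIs in macrophages of all 7 pools and 1 UMI in microglia, a ratio of 572 with a counting interval of 98.6 to 22999.5. Msr1, the class A scavenger receptor, ranged from 25.6 to 349 CPM against 0 to 6.72 CPM in microglia, a log2 difference of 6.18 (SE 0.700, edgeR adjusted p = 1.42e-07). Clec4n, the lectin dectin 2, and Cd36, a receptor for oxidised lipids, had 31 and 36 UMIs in macrophages against 2 each in microglia. Cd36 was at 0 in the macrophages of 1 pool. The inhibitory antibody receptor Fcgr2b was 1.44 higher on the log2 scale. The member that fell was Lrp1, a broad endocytic receptor, with a log2 difference of -1.65 (SE 0.435, edgeR adjusted p = 0.00888). Cd68, Mertk and Fcgr3 did not pass.

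Genes of iron handling were tested in 5 of 13 cases, with 3 higher (7.43% of all genes tested) and Lrp1, which also takes up haem, lower. Ftl1, the ferritin light chain, ranged from 613 to 3409 CPM in macrophages and from 235 to 935 CPM in microglia, with overlap between pools of the cell types but a higher macrophage value in 7 of 7. Its log2 difference was 1.92 (SE 0.240, edgeR adjusted p = 6.90e-07). Fth1, the heavy chain, was 1.12 higher and Trf, transferrin, 0.80 higher. The call of Trf (edgeR adjusted p = 0.0247) was lost in 15 alternative settings and kept in 4, and Trf is abundant in oligodendrocytes, whose list the macrophages carried at 0.484% of UMIs. Its part in the result was not tested. Both ferritin genes have many near-identical copies in the genome, which may share their reads. Hmox1, which breaks down haem, was below the filter with 15 UMIs in 13 cells.

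Complement genes outside the selection were tested in 7 of 11 cases, with 3 higher and 1 lower beside 7.43% and 4.56% of all genes tested. Cfp, properdin, which stabilises the alternative pathway, ranged from 51.2 to 768 CPM against 0 to 18.8 CPM, a log2 difference of 5.76 (SE 0.653, edgeR adjusted p = 1.44e-07). C4b, of the classical pathway, had 35 UMIs in macrophages and 5 in microglia, and C5ar1, the receptor of C5a, was 1.79 higher on the log2 scale. Itgam, which encodes the CD11b chain of a complement receptor, had 10 UMIs in macrophages against 1023 in microglia. Its log2 difference was -3.28 (SE 0.392, edgeR adjusted p = 3.21e-07), lower in 7 of 7 pools. C1qc and C3ar1 were among those that did not pass.

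Of 23 chemokines, cytokines and their receptors 13 were tested, 7 were higher and 1 was lower, beside 7.43% and 4.56% of all genes tested. Ccl8 had 66 UMIs in the macrophages, with UMIs in all 7 pools, and none in microglia, at least 225-fold higher. Its relative Ccl7 had 38 UMIs in 6 pools and none in microglia, at least 129-fold higher. The neutrophil attractant Cxcl2 had 267 UMIs against 33 and varied widely, from 28.5 CPM in morphine pool 2 to 6957 CPM in morphine pool 3. UMIs of Cxcl2 stood in 23.8% of the macrophages. Cxcl1 had 98 UMIs in the macrophages of 3 pools only, and DESeq2 did not call it (adjusted p = 0.350). Ccl2, Ccl6 and Ccl12 were 3.36, 1.98 and 2.05 higher on the log2 scale. Tgfbr1, a receptor of the cytokine TGF-beta on which microglia depend, had 5 UMIs in macrophages and 1176 in microglia, a log2 difference of -4.49 (SE 0.513, edgeR adjusted p = 1.59e-07). Il1b, Tnf, Ccl3, Ccl4 and Ccl9 did not pass.

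Among lysosomal and lipid genes 16 of 21 were tested, 4 higher and 2 lower, beside 7.43% and 4.56% of all genes tested, and the list's median was 0.53. The cathepsins differed in direction. Ctsb was higher in macrophages, with 1882 to 5505 CPM against 817 to 1526 CPM (log2 difference 1.37, SE 0.197, edgeR adjusted p = 6.40e-06), and Ctsc was 1.95 higher. Ctsd was lower (log2 difference -1.48, SE 0.247, edgeR adjusted p = 4.94e-05), and so was Ctss, the cathepsin that cuts the class II invariant chain, with 460 to 1541 CPM against 1688 to 5293 CPM (log2 difference -1.80, SE 0.238, edgeR adjusted p = 1.67e-06). Cd63, a tetraspanin of late endosomes, and Plin2, a coat protein of lipid droplets, were 1.86 and 3.81 higher.

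Of 10 transcription factors tested, Nr4a1 was higher (1.33) and Irf8 and Mef2a lower (-1.67 and -0.78). Of all genes tested 7.43% were higher and 4.56% lower. Spi1, which encodes PU.1, did not pass. Both the Nr4a1 and the Mef2a call were lost when mock pools 2, 3 or 4 or morphine pool 3 were left out in turn. Of the class I genes H2-D1 was 1.03 higher, a call lost in 6 alternative settings (without mock pool 3 among them) and kept in 13, and B2m and H2-K1 did not pass. Gas6, a ligand of clearance receptors, was 2.25 higher with no overlap, 187 to 768 CPM against 56.3 to 115 CPM. Of 12 tested genes shared by brain macrophages 3 were higher and 2 lower, beside the same 7.43% and 4.56%, while Tyrobp, Aif1 and Ptprc did not pass. Among the higher genes, the call of Fcer1g was lost in 11 alternative settings and kept in 8. Among the lower, that of Ly86 was lost in 4 and kept in 15. Cybb, the catalytic subunit of the phagocyte NADPH oxidase, had 69 UMIs against 7 (log2 difference 6.40, SE 0.629, edgeR adjusted p = 1.20e-08). It was at 0 in the macrophages of morphine pool 1. Of 15 immediate early genes tested 6 were higher, beside 7.43% of all genes tested, and 14 had a positive difference. Their median was 0.53 against 0.04 over all genes, and Fosb (2.68) and Fos (1.62) had the smallest p. Of 9 heat shock genes tested in edgeR 0 passed, beside 12% of all genes tested, and 0 had an unadjusted p under 0.05.

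Genes outside all lists added to the difference. Ifi207 and Mndal, both members of the interferon-inducible p200 family, had 83 and 35 UMIs in macrophages and none in microglia, at least 283-fold and 119-fold higher, and each was found in all 7 pools. These neighbouring and related genes may share reads. Wfdc17, a small secreted protein, had 201 UMIs against 2, a ratio of 1027 with a counting interval of 281 to 8538. Gpx3, a secreted glutathione peroxidase, had 55 UMIs against 4, and Lilrb4a, an inhibitory receptor, had 50 against 2.

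On the other side, of 21 microglia genes outside the selection 14 were tested and 12 were lower in the macrophages, with none higher. Of all genes tested 4.56% were lower and 7.43% higher. Cx3cr1, the fractalkine receptor, had 10 UMIs against 3727 (log2 difference -5.15), and Sparc, a matrix protein, had 11 against 4139 (log2 difference -5.24). Olfml3 had no UMI in the macrophages against 928 in microglia, at least 30.3-fold lower with a floor of 3 UMIs over the macrophages. Selplg, a selectin ligand, had 6 UMIs against 2442. Cst3, cystatin C, was still abundant in the macrophages, at 4218 to 9848 CPM, but lower than the 16838 to 49140 CPM of microglia. The F11r junction protein, not on the list, had no UMI against 400. Bin1 and Fcrls did not pass.

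**Figure D2:**
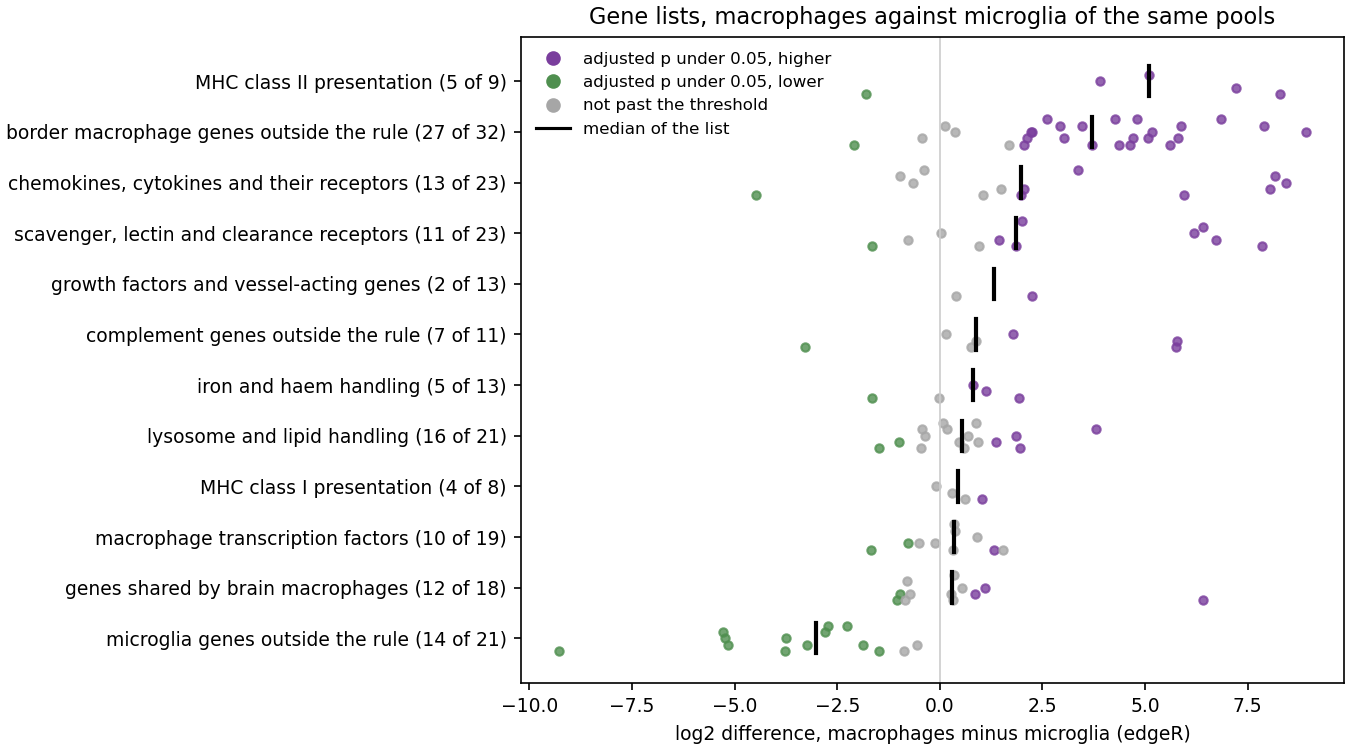
Log2 difference of each tested gene between macrophages and microglia of the same 7 pools (edgeR), by gene list, with the number tested of those listed, and a bar at each list's median. Border macrophage genes have their median at 3.72 and microglia genes outside the selection at -3.01, while the lists of transcription factors and of genes shared by brain macrophages centre near 0.

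The macrophages differed among themselves in MHC class II, the molecules that present antigen to helper T cells. The summed UMIs of H2-Aa, H2-Ab1, H2-Eb1 and the invariant chain Cd74 numbered 265 in the 80 cells, of which 256 lay in 6 cells with 5 or more. In those 6 the sums were 6, 20, 34, 56, 67 and 73 UMIs. A further 7 cells had 1 to 4 UMIs and 67 had none. All 6 came from mock pools, 3 from pool 2, 2 from pool 3 and 1 from pool 4, and 1 cell held 56.7%, 54.9% and 100% of its pool's class II UMIs in those pools.

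By pool the class II level in the macrophages was 0, 1534, 5149 and 2260 CPM in mock pools 1 to 4 and 0, 142, 0 and 0 CPM in morphine pools 1 to 4. Class II cells made up 6 of 42 mock macrophages (14.3%, exact 95% binomial interval 5.43% to 28.5%) and 0 of 38 morphine macrophages (upper limit 9.25%). The intervals treat cells as independent, cover counting error only and overlap. They do not measure the spread between pools, which are the replicates. In cells with fewer than 5 UMIs the mock group held 4 class II UMIs and the morphine group 5. Outside the macrophages 14 kept barcodes had 5 or more class II UMIs, 8 in mock and 6 in morphine pools, and 2 of these were microglia. The difference in this share between the groups was not tested.

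Class II cells carried fewer of the other marks. Only 1 of the 6 had a Lyve1 UMI, against 47 of the other 74. Mrc1 stood at 1066 CPM in them and 3002 CPM in the rest, Pf4 at 711 and 1707 CPM, and Ms4a7 at 178 and 729 CPM. Cd163 stood at 1155 and 1102 CPM and was detected in 4 of the 6. Lyz2 stood at 6484 and 4279 CPM. Their depth was somewhat lower, with a median of 1225 UMIs against 1573. Their macrophage sums were 4, 4, 4, 7, 9 and 13 UMIs, at the low end of the set, where the median was 17.5. Ccr2, a monocyte gene, had its only 2 UMIs in 1 of these cells, and the dendritic cell genes Flt3, Itgax and Cd209a were at 0 in all of them.

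**Figure D3:**
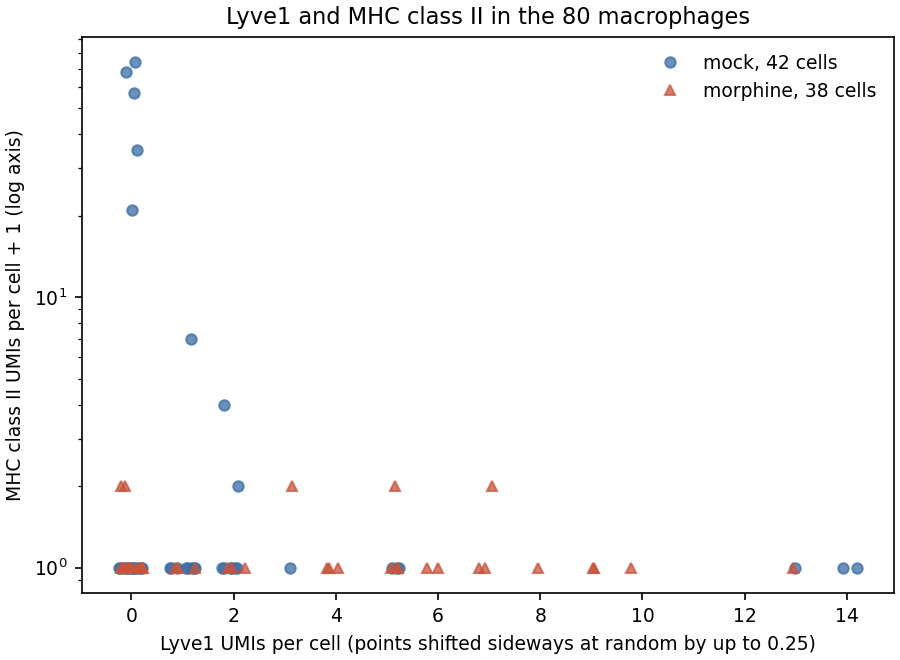
UMIs of Lyve1 (horizontal) against summed UMIs of H2-Aa, H2-Ab1, H2-Eb1 and Cd74 plus 1 (vertical, log axis) in each of the 80 macrophages, mock as circles and morphine as triangles. The 6 cells with 5 or more class II UMIs are all mock cells, and 5 of them have no Lyve1 UMI.

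Against microglia, 4 of the 5 class II genes tested were higher and Ctss was lower, beside 7.43% and 4.56% of all genes tested. H2-Eb1 had 49 UMIs in the macrophages of 3 pools and none in microglia, and H2-Aa 42 UMIs in the same 3 pools against 1. Cd74 had 129 against 60, a log2 difference of 3.90 (SE 0.579, edgeR adjusted p = 1.21e-05) but higher in only 4 of 7 pools. H2-Ab1 was higher in 3 pools and lower in 3. DESeq2 did not keep the calls of Cd74 (adjusted p = 0.0510), H2-Aa (0.343) and H2-Eb1 (0.334).

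The next comparison asked whether morphine altered the number or the transcripts of these cells. The macrophages made up 0.104%, 0.291%, 0.487% and 0.143% of kept barcodes in mock pools 1 to 4 and 0.175%, 0.228%, 0.462% and 0.150% in morphine pools 1 to 4. The group means were 0.256% ± 0.174 (SD, n = 4) and 0.254% ± 0.143 (SD, n = 4), a difference of -0.00249 percentage points (two-sided exact permutation test, p = 1, smallest possible 0.0286). Pool 3 was the highest in both groups. Within the pools of 37 to 45 days the difference was 0.00433 points and within those of 78 to 82 days -0.00931 points. As a share of macrophages plus microglia the means were 6.44% ± 3.35 (SD, n = 4) in mock and 11.2% ± 5.90 (SD, n = 4) in morphine pools (exact permutation p = 0.171). Morphine pool 1, at 17.9%, held only 23 microglia.

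Mitochondrial transcripts took a larger part of the macrophages' UMIs after morphine, without passing the test. The pool medians were 3.35%, 2.28% and 3.99% in mock pools 2 to 4 and 9.37%, 7.57%, 4.35% and 8.22% in morphine pools 1 to 4, and these pools did not overlap between the groups. Mock pool 1, whose 3 cells had 5.79%, lay above morphine pool 3 and did not enter. The means were 3.21% ± 0.862 (SD, n = 3) and 7.38% ± 2.15 (SD, n = 4), a difference of 4.17 points (two-sided exact permutation test, p = 0.0571, smallest possible 0.0286). In each of the 4 same-numbered pairs, mock pool 1 included, the morphine median was the higher. Within the younger pools the difference was 5.12 points and within the older 3.15 points. The same share moved in the other cells of these libraries: pool medians averaged 3.40% in mock and 6.17% in morphine pools in microglia, and 3.45% and 5.61% over all kept barcodes. These means also leave out mock pool 1, whose medians were 6.32% in microglia and 4.57% over all kept barcodes. The part of the mitochondrial share in the gene results below was not tested.

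**Figure D4:**
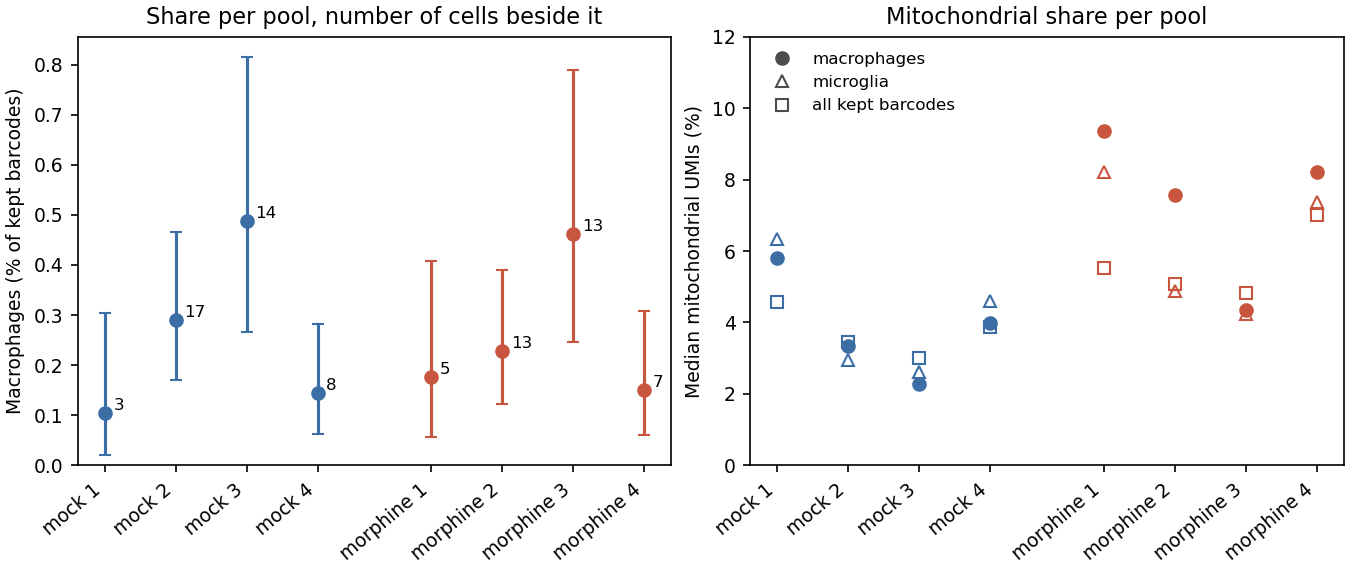
Left, macrophages as a percentage of kept barcodes in each pool with exact 95% binomial intervals and the number of cells; right, median percentage of mitochondrial UMIs per pool in macrophages (filled circles), microglia (triangles) and all kept barcodes (squares). Shares span 0.104% to 0.487% in mock and 0.150% to 0.462% in morphine pools, and the mitochondrial medians of morphine pools lie mostly above those of mock pools in all 3 kinds of barcode.

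For the transcripts, 3 mock and 4 morphine pools with 5 or more macrophages entered edgeR, and 430 genes passed the filter on low counts. None was called (0.0%), while 13 had an unadjusted p under 0.05 and the smallest adjusted p was 0.0623. In 17 genes (3.95%) the pools of the groups did not overlap. DESeq2 called 2 genes, Cd74 lower and mt-Rnr2 higher. Without the 21 cells with 1% of UMIs in another list, edgeR called 0 of 186. Deviations of same-numbered pools correlated at 0.53, 0.57 and 0.19, and those of pools of unlike number at up to 0.30. The 0.19, that of pool 4, lay within the range of the unlike pools. With the replicate number as a block, in the 3 pairs available, edgeR called 3 of 619 genes: mt-Rnr2 (adjusted p = 0.00828), Cd74 (adjusted p = 0.0390) and H2-Eb1 (adjusted p = 0.0439).

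The large mitochondrial ribosomal RNA mt-Rnr2 stood at 14680, 18648 and 22033 CPM in mock pools 2 to 4 and at 68632, 45527, 34552 and 53912 CPM in morphine pools 1 to 4. All 4 morphine pools lay above all 3 mock pools. The log2 difference was 1.50 (SE 0.282, edgeR adjusted p = 0.0623). In the microglia of the same pools mt-Rnr2 stood at 20041, 22125 and 29926 CPM in mock and at 39789, 35150, 38457 and 59520 CPM in morphine pools. The small ribosomal RNA mt-Rnr1 had a log2 difference of 1.70 (SE 0.543, edgeR adjusted p = 0.856), with morphine pool 1 far above the rest at 12130 CPM. All 7 mitochondrial genes tested had a positive difference, with a median of 0.40 against -0.02 over all genes, and 0 of 7 passed.

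Cd74 stood at 895, 2481 and 844 CPM in mock pools 2 to 4 and at 0, 143, 0 and 0 CPM in morphine pools 1 to 4. Every mock pool lay above every morphine pool, and mock pool 1, not in the fit, was at 0. The log2 difference was -4.50 (SE 0.848, edgeR adjusted p = 0.0623). The mock UMIs lay almost wholly in the 6 class II cells described above. Without morphine pool 2, whose 5 UMIs were the only ones in that group, the edgeR adjusted p was 0.0276.

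Other genes of small p did not approach the threshold. Ccl6, a chemokine of macrophages, stood at 102, 155 and 67.5 CPM in mock and at 461, 428, 1074 and 268 CPM in morphine pools (log2 difference 2.37, SE 0.636, edgeR adjusted p = 0.512). Foxp1, a transcription factor that acts in monocyte differentiation, stood at 460, 620 and 506 CPM against 154, 200, 93.4 and 115 CPM (log2 difference -1.77, SE 0.535, edgeR adjusted p = 0.792). In the microglia of these pools Foxp1 ranged from 271 to 373 CPM without and from 263 to 332 CPM with morphine. Both genes, chosen for their small p, were among the 17 of 430 (3.95%) whose groups did not overlap in the macrophages. Neither was called in any alternative fit. Whether the morphine difference was unequal in macrophages and microglia was tested with an interaction term: none of 1602 genes passed in edgeR, 51 had an unadjusted p under 0.05, and the smallest adjusted p, that of Cd74, was 0.330.

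**Figure D5:**
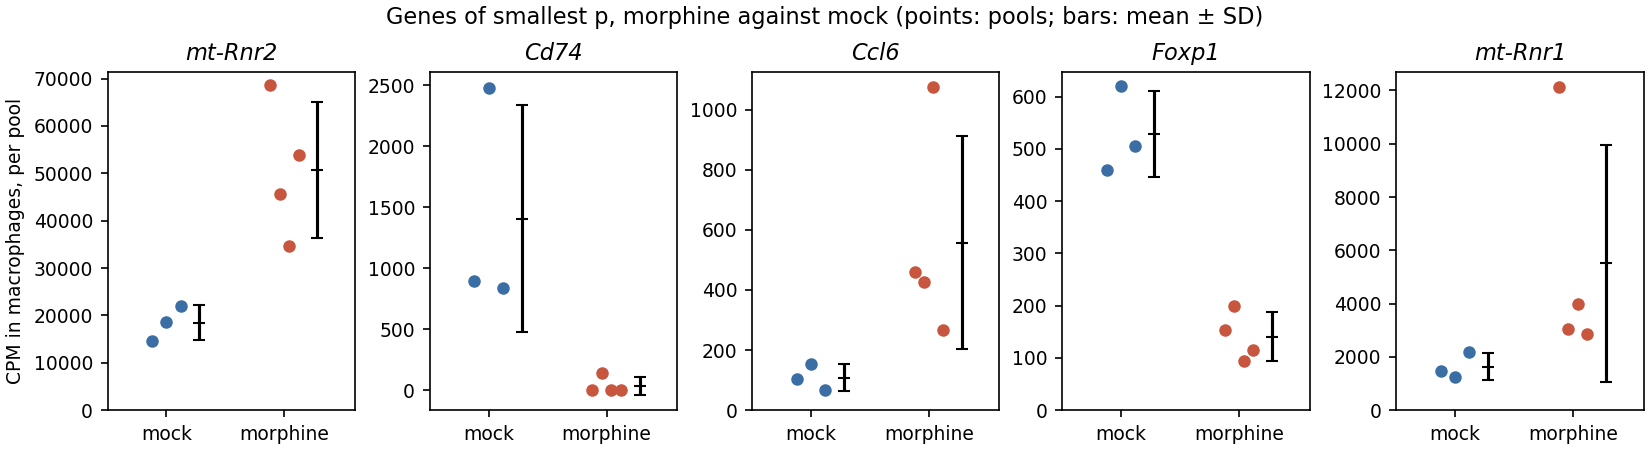
Level in macrophages (CPM) of the 5 genes with the smallest p for morphine against mock, with 1 point per pool and bars for mean ± SD (3 mock and 4 morphine pools, separate scales). The groups do not overlap in any of the 5, which were chosen by their p in these same pools. Of all 430 genes tested, 17 (3.95%) had groups that did not overlap. None of the 5 had an adjusted p under 0.05 in the edgeR fit of these 7 pools without the replicate block.

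The lists chosen for the treatment gave no call. Of 30 glucocorticoid-responsive genes 5 were tested, 4 with a positive difference and a median of 0.84. Nfkbia, the inhibitor of NF-kappaB, was at 358, 775 and 1046 CPM in mock and 1535, 200, 5510 and 1494 CPM in morphine pools, with overlap (edgeR adjusted p = 0.998). Of 16 immediate early genes 11 were tested, all 11 positive with a median of 0.42, and 0 passed. Ier3 had the smallest p of them (log2 difference 1.15, SE 0.871, edgeR adjusted p = 0.998). Fos stood at 256, 2016 and 1653 CPM in mock and 921, 85.5, 3549 and 1916 CPM in morphine pools. Junb stood at 332, 1667 and 911 CPM and at 461, 200, 3642 and 728 CPM. Both were highest in morphine pool 3, while morphine pool 2 lay below every mock pool, so the shared sign did not hold pool by pool. Heat shock genes had a median of -0.09 over 4 tested. Oprm1 and Oprd1, the mu and delta opioid receptors, had no UMI in the 80 macrophages, which allows a share of up to 3.75% of cells with a UMI. Oprk1 had UMIs in 3 macrophages, 3.75% against 17.2% of neurons, and Oprl1 in 2. Tlr4, an innate receptor that morphine has been reported to engage, had 7 UMIs in 6 cells, and its coreceptor Cd14 had 84 UMIs in 32 cells. Cd14 stood at 128, 659 and 270 CPM in mock and 614, 143, 1447 and 536 CPM in morphine pools, and the groups overlapped.

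Neuronal and oligodendrocyte transcripts also varied between these pools. The neuron list took 0.367% to 1.47% of macrophage UMIs in mock pools and 0.205% to 1.06% in morphine pools, and the oligodendrocyte list 0.296% to 1.23% and 0.123% to 1.10%. Penk, a transcript of striatal neurons, was at 3913, 194 and 2564 CPM in mock and 307, 1682, 467 and 268 CPM in morphine pools. Their part in the differences above was not tested.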

How the data were processed

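Per the file headers, the authors made the Drop-seq tables with the DigitalExpression program, part of the Drop-seq tools of the Broad Institute, and the deposited values are raw UMI counts per gene symbol and cell barcode; in all 8 tables every barcode's sum equalled the deposited summary. Per the submitters' processing notes, DESeq, DESeq2, HTSeq, STAR 2.4.2a and Trimmomatic 0.36 with build mm10 served the series, without roles. Strand use in counting is not given in the sources used here, so overlapping genes on opposite strands could not be told apart. Libraries of sorted oligodendrocytes were not used here.

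The macrophages and all gene lists were chosen with earlier results of these data known. The pools numbered 1 used another annotation: symbols were renamed to current ones, and the 20856 symbols found in both annotations were tested (0.114% of UMIs lay outside them). Doublets were not removed. Macrophage UMIs per pool numbered 4364 to 39124, which limits the genes that can be tested. UMIs were summed per pool and cell type and tested in edgeR 4.0.16 (R 4.3.3) with TMM scaling, filterByExpr and Benjamini-Hochberg adjustment over all genes tested. The main morphine fit has no block. The replicate numbers come from the sample titles. Deviations of same-numbered pools correlated at 0.53, 0.57 and 0.19 (pools 2 to 4), which is over 0.1 in each pair, and those of pools of unlike number at -0.60 to 0.30, above the 0.19 of pool 4 in 3 cases; by the over-0.1 criterion the numbers were taken to pair the pools. The labels name pools as separate samples, so p-values measure the spread between pools of 2 mice. DESeq2 1.42.0 was an alternative. Named genes against microglia were the 12 largest called differences in each direction that held in every pool and up to 4 called genes of smallest p per list; for morphine, the 5 of smallest p and up to 2 per list. Others named fall outside that rule and were chosen after their values were seen. Each fit was tested on simulated counts with known changes. Python 3.11.15, numpy 2.4.6, scipy 1.17.1 and pandas 2.3.3 were used. A count of 0 was read as allowing 3 counts, save in the share of class II cells, and intervals cover counting error only. Coordinates are from GENCODE vM21 and RefSeq on GRCm38.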

Additional observations from a re-analysis of the deposited data

Results flagged for a closer look

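Among 36 groups of values that were checked, 2 had a pool far from the others, about what chance gives at 1 in 20. A group held the 4 pools of 1 treatment or, for differences against microglia, all 7 pools of that fit. Cd74 stood at 143 CPM in the macrophages of morphine pool 2 and at 0 in the other 3 morphine pools. mt-Rnr1 stood at 12130 CPM in the macrophages of morphine pool 1, the pool with 5 macrophages, against 2874 to 3969 CPM in the other 3. The explanation of neither was tested.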

How the results depend on the processing

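The difference in macrophage share of kept barcodes had no fixed sign. It was 0.0667 with barcodes thinned to 1000 UMIs, 0.00433 in the pools of 37 to 45 days, 0.0175 and 0.00580 with a minimum of 2 or 5 macrophage UMIs, 0.00277 with at least 500 genes and 0.0221 without the 21 cells with 1% of UMIs in another list. Leaving out 1 pool at a time it ran from -0.0719 to 0.0744 points, and with the replicate block it was -0.00249 (exact permutation p = 1). As a share of another whole, macrophages plus microglia, it was 4.80 points. The mitochondrial difference kept its sign in every setting, and with the replicate block it was 3.51 points (exact permutation p = 0.25, the smallest that 3 pairs allow). For morphine, the count of called genes moved from 0 to 1 with a minimum of 2 macrophage UMIs, to 6 with no filter on low counts, to 3 with the replicate block and to 2 in DESeq2, and ran from 0 to 1 leaving out 1 pool at a time; the single gene was Cd74 each time. The 6 were Cd74, H2-Aa, H2-Ab1, H2-Eb1, Cxcl2 and Ttr. The chaperone Hsp90aa1, at -0.27 (log2), turned to 0.16 without mock pool 2 and ran from -0.50 to 0.16 leaving out 1 pool at a time. Against microglia the 192 became 708 without those 21 cells, 499 with no filter, 59 without the block, and 140 to 269 leaving out 1 pool at a time, with 269 of 3112 genes without morphine pool 1 and 140 of 1515 without mock pool 3. The genes tested numbered 2925, 16760 and 761 in the first 3 of these; the same macrophages entered with no filter and without the block. No microglia were filtered on other lists when those 21 cells were left out. The cause of these shifts was not tested. Of 53 genes named by rule against microglia, all called, 40 kept their call in every alternative in which they were tested and 0 reversed. Setting the minimum at 1 macrophage per pool was chosen after seeing the data.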
